A study of Rattus norvegicus with 25 samples.

Results

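The 10 genes described here sense unfolded protein in the endoplasmic reticulum (ER) or carry out ER-associated degradation (ERAD): Ern1, Eif2ak3, Atf6, Xbp1, Herpud1, Sel1l, Syvn1, Edem1, Derl1 and Derl2. They were read from all probe sets, groups of short DNA probes summarized as 1 signal, that the array's annotation assigns to a single symbol among them. That gave 15 probe sets for 9 of the 10 genes, out of 31042 probe sets and 14217 genes with a probe set of their own. No probe set is named for Ern1, the gene of the IRE1 sensor, in the annotation used here, so IRE1 was not analysed here. RNA came from 7 stable lines of McArdle-RH7777 cells, which derive from a rat hepatoma and export apoB, and was hybridized to 25 Affymetrix rat expression arrays. By the methods, individual clones were picked and expanded, so a line stands for a clone. The control group was 2 lines (5 arrays), which carry an empty vector by the study's methods. The Sar1A group was 1 line (4 arrays) and the Sar1B group 2 lines (8 arrays), each expressing the native human GTPase from a tetracycline-inducible vector with a FLAG tag. The Sar1B:H79G group was 2 lines (8 arrays) that express a constitutively active Sar1B mutant, also with a FLAG tag and from such a vector. The study reports most recombinant Sar1 in its Sar1A lines and least in its Sar1B lines. The part of this difference in the results was not tested. All lines, controls included, grew in blasticidin (10 µg/ml) and Zeocin (250 µg/ml) and received tetracycline (1 µg/ml) for 24 h before harvest. The arrays of a line are technical replicates by the methods, so they were averaged and each line was counted as 1 replicate.

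Sar1 is the GTPase that starts assembly of the COPII coat, the vesicle coat that carries newly made proteins from the ER to the Golgi apparatus. When unfolded protein accumulates in the ER, the unfolded protein response (UPR) is set off by 3 membrane sensors: PERK (Eif2ak3), which phosphorylates the translation factor eIF2α, ATF6, which moves to the Golgi and is cut into a transcription factor, and IRE1 (Ern1), which splices Xbp1 mRNA. ERAD recognizes misfolded glycoproteins, passes them back through the ER membrane at a complex built around the ubiquitin ligase HRD1 (Syvn1) and delivers them to the proteasome. In hepatocytes this machinery also handles apoB that is not exported.

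All control arrays lie in a single array series and all arrays of the Sar1 lines in another, so in any comparison with control the series and the construct cannot be told apart. For the poly-A spikes, the 5′ probe sets minus the 3′ probe sets gave -1.63 and -1.74 (log2) in the control lines and between -0.84 and -0.76 in the others, and the part of this gap in the results was not tested. The Sar1B:H79G, Sar1B and Sar1A arrays are of a single series, where the same gap for β-actin was -0.71 and -0.63 in Sar1B:H79G, -0.50 and -0.49 in Sar1B and -0.61 in Sar1A. Of the hepatocyte markers, all 9 measured lay above the median probe set in their mean over arrays, whereas 0 of 3 endothelial, 0 of 4 leukocyte, 1 of 5 fibroblast (Col1a1) and 1 of 3 cholangiocyte markers (Epcam) did. The lowest of the 9 hepatocyte markers read between 8.08 and 8.25 over the lines. That is close to the array medians, as was Col1a1 (8.08 to 8.21). The rat Sar1b probe set read between 11.19 and 11.52 in all 7 lines and gave no check of the human Sar1B constructs. One of 2 rat Sar1a probe sets had line means of 11.47 and 11.31 in control, 13.10 in Sar1A, 12.05 and 11.46 in Sar1B, and 12.75 and 13.01 in Sar1B:H79G, with differences of 1.72 in Sar1A (adjusted p = 0.043) and 1.49 in Sar1B:H79G (0.0058) against control and of 1.13 in Sar1B:H79G against Sar1B (0.023). The other had 0.20 in Sar1A (adjusted p = 0.64) and 0.92 in Sar1B:H79G (0.021) against control and 1.00 in Sar1B:H79G against Sar1B (0.029). Sar1a thus moved with the Sar1B:H79G group, and its part in the results was not tested. Array medians lay between 8.10 and 8.16 on the log2 scale.

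Most of the UPR and ERAD genes rose in Sar1B:H79G against control, with Herpud1 (2.96-fold), Atf6 (2.10-fold) and Derl1 (1.77-fold) in front. With each gene taken at its brightest probe set, 7 of 9 genes were called higher and 0 lower at a Benjamini-Hochberg adjusted p under 0.05 (limma, adjusted over all probe sets), where 13.4% of all genes were called higher and 10.6% lower. Against Sar1B, 4 of 9 were called higher and 0 lower (4.9% and 7.18% of all genes), and against Sar1A 2 of 9 and 0 (1.98% and 2.22%). The median log2 fold change of the 9 genes was 0.52 against control, 0.37 against Sar1B and 0.50 against Sar1A, beside 0.025, 0.012 and 0.015 for all genes. Atf6 and Herpud1 were the genes called in each of these 3 comparisons, which share the Sar1B:H79G lines. Without control line 1 or control line 2, 3 genes were called against control, and 4 without Sar1B:H79G line 2. Against Sar1A, 1 gene was called without either control line. In bulk RNA, a change in RNA per cell and a change in the share of cells of a kind cannot be told apart.

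**Figure D1:**
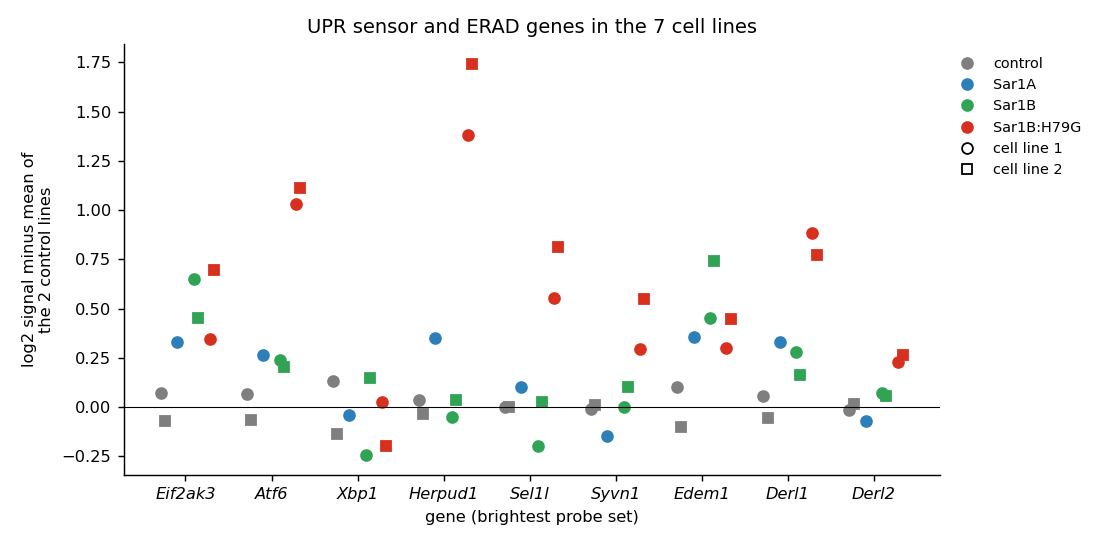
Log2 signal of the 9 measured genes (x axis, brightest probe set of each) in each of the 7 cell lines, minus the mean of the 2 control lines (y axis), with 1 point per line, coloured by group and shaped by line number. Both Sar1B:H79G lines lie above every other line for Herpud1, Atf6, Sel1l, Syvn1, Derl1 and Derl2, but not for Eif2ak3, Edem1 or Xbp1.

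Among the sensors, Atf6 RNA showed the clearest separation of the Sar1B:H79G lines from the rest, while the study reports ATF6 protein unaltered in them. Its brightest probe set (1392475_at; the gene lies at chr13:85460312-85639959 of GRCr8) read 10.11 and 9.70 on the arrays of control line 1 and 9.72, 9.85 and 9.76 on those of control line 2. The Sar1B:H79G arrays ran from 10.78 over a median of 10.93 to 11.02, those of Sar1B from 10.03 over 10.05 to 10.13, and the 4 Sar1A arrays were at 10.12, 10.18, 10.05 and 10.08. Every Sar1B:H79G array thus lay above every array of the other groups. The group means over lines were 10.91 ± 0.06 (SD, n = 2 lines) in Sar1B:H79G, 9.84 ± 0.09 (SD, n = 2 lines) in control and 10.06 ± 0.02 (SD, n = 2 lines) in Sar1B. The log2 fold change was 1.07 against control (SE 0.07, adjusted p = 0.0011), 0.85 against Sar1B (SE 0.07, adjusted p = 0.0037) and 0.81 against Sar1A (SE 0.09, adjusted p = 0.014). The calls against control and Sar1B held with every line left out in turn. The second Atf6 probe set (1384957_at) also rose, by 1.17 against control (adjusted p = 0.0031) and 0.66 against Sar1B (adjusted p = 0.027), and its difference from Sar1A, 0.55, missed the test (adjusted p = 0.14). On it the native lines stood nearer to Sar1B:H79G: all Sar1A and Sar1B arrays, from 7.99 to 8.38, lay above all control arrays, from 7.32 to 7.81.

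Eif2ak3, which encodes PERK, was at similar levels in Sar1B and Sar1B:H79G lines. Its probe set (1368326_at; gene at chr4:104363838-104425271 of GRCr8) had line means of 9.35 and 9.21 in control, 9.61 in Sar1A, 9.93 and 9.73 in Sar1B, and 9.63 and 9.98 in Sar1B:H79G. All arrays of the Sar1A, Sar1B and Sar1B:H79G groups lay above all control arrays, and those of Sar1B and Sar1B:H79G overlapped. The log2 fold change of Sar1B:H79G against control was 0.52 (SE 0.13, adjusted p = 0.041). It no longer passed with control line 1 (adjusted p = 0.093), control line 2 (0.20) or the second Sar1B:H79G line (0.11) omitted. Sar1B had 0.55 against control and missed the test (adjusted p = 0.060), which it passed with either Sar1B:H79G line omitted (0.033). Between Sar1B:H79G and Sar1B the difference was -0.03 (95% interval -0.36 to 0.30, adjusted p = 0.95).

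Xbp1, the transcription factor whose mRNA is the splicing target of IRE1, was bright and did not pass the test in any comparison. Its probe set (1371249_at; gene at chr14:84604623-84609707 of GRCr8) had line means of 12.28 and 12.01 in control, 12.10 in Sar1A, 11.90 and 12.29 in Sar1B, and 12.17 and 11.95 in Sar1B:H79G. The 2 lines of a group differed more than the groups did. Sar1B:H79G differed by -0.09 (log2) from control (95% interval -0.48 to 0.31), -0.04 from Sar1B (-0.43 to 0.35) and -0.04 from Sar1A (-0.52 to 0.43), with adjusted p of 0.73, 0.95 and 0.99. Whether this probe set reads the spliced form, the unspliced form or both was not tested.

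**Figure D2:**
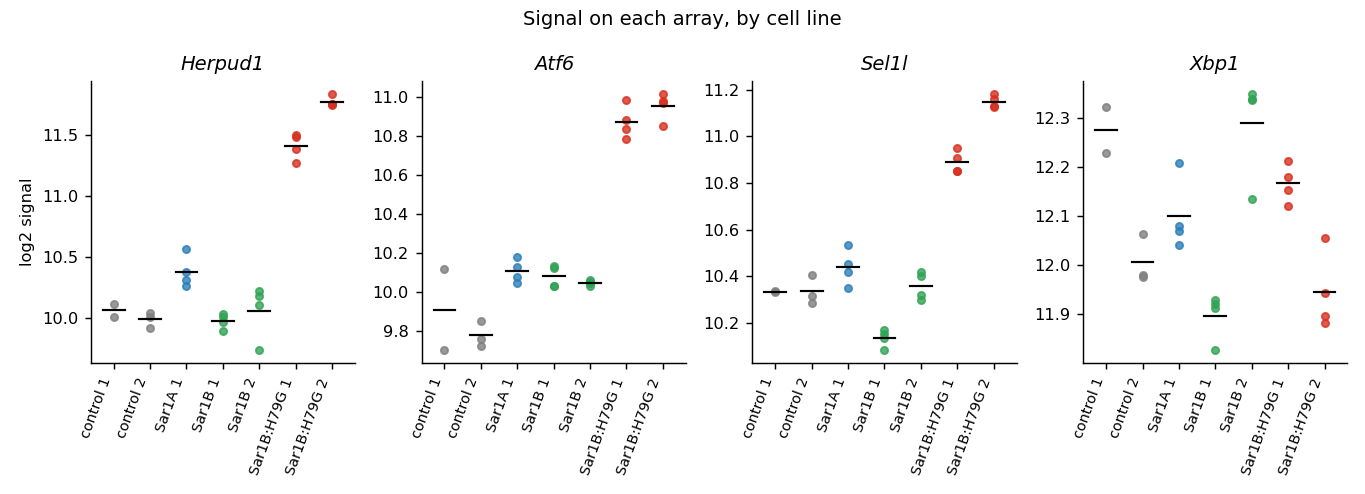
Log2 signal (y axis) of Herpud1, Atf6, Sel1l and Xbp1 on every array, with 1 point per array and a bar at the mean of each cell line (x axis), coloured by group. All Sar1B:H79G arrays of the first 3 genes lie above all other arrays, whereas for Xbp1 the lines of each group spread over the same range.

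Herpud1, which encodes a stress-induced ER membrane protein of the HRD1 complex, had the largest difference of the 9 genes in each comparison of Sar1B:H79G. On its probe set (1367741_at; gene at chr19:10604360-10624168 of GRCr8), the arrays of Sar1B:H79G line 1 read 11.39, 11.50, 11.48 and 11.27, and those of line 2 read 11.75, 11.76, 11.74 and 11.84. The control arrays read 10.12 and 10.01 in line 1 and 10.04, 9.92 and 10.01 in line 2. Sar1B arrays ran from 9.74 over a median of 10.02 to 10.22, and the Sar1A arrays read 10.57, 10.32, 10.38 and 10.26. The Sar1B:H79G arrays overlapped with none of the other groups, and the arrays of its 2 lines did not overlap each other. The Sar1A line lay above all control and Sar1B arrays. Its level rose by 1.56 (log2) against control (SE 0.12, adjusted p = 0.0015), 1.57 against Sar1B (SE 0.12, adjusted p = 0.0028) and 1.21 against Sar1A (SE 0.15, adjusted p = 0.018). The first 2 calls held with every line left out in turn, and the call against Sar1A did not hold with control line 1 or 2 omitted (adjusted p = 0.070 for each), lines that enter this comparison only through the estimate of the spread. Between Sar1B and control the difference was -0.01 (95% interval -0.31 to 0.29).

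The promoters of Herpud1 and Xbp1 are shown because each held a searched motif, while one gene had the largest change of the 9 and the other did not pass the test. Sequences were taken from RefSeq (rat build GRCr8), which gave a promoter for 7 of the 10 genes, with 250 bases before and 50 after the annotated start. The searched motifs, on both strands, were the ER stress response element ERSE (CCAAT, 9 bases, CCACG), ERSE-II (ATTGG, 1 base, CCACG), the core of the UPR element (TGACGTG) and the C/EBP-ATF composite element (TGATG directly followed by CAAT). The 250 bases before the start are printed 5′ to 3′ on the gene's strand, with the matching stretch in capitals, an ERSE-II in Herpud1 (chr19:10614708-10614957, minus strand, a start that lies inside the span annotated for the gene) and an ERSE in Xbp1 (chr14:84604373-84604622, plus strand).
Herpud1: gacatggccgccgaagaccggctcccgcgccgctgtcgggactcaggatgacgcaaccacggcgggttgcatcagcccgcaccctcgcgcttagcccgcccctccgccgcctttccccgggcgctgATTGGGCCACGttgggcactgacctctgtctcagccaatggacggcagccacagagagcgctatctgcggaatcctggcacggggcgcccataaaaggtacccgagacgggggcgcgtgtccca
Xbp1: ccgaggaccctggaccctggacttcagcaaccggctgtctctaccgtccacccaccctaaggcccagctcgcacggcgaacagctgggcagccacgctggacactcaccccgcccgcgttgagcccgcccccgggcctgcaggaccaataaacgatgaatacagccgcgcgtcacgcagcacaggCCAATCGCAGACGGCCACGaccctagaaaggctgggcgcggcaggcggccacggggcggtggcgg
ERSE matched in 0.0765% and ERSE-II in 0.0546% of the 27457 promoters of the table, the UPR element core in 1.88% and the composite element in 0.193%. The ERSE-II of Herpud1 spans positions -124 to -114 before the start, and the ERSE of Xbp1 positions -65 to -47. The windows of Eif2ak3, Sel1l, Syvn1, Edem1 and Derl2 held none of these letters, and a match describes the sequence only. Those of Syvn1 and Edem1, like that of Herpud1, lie wholly inside the span annotated for the gene.

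Sel1l and Syvn1 encode the adaptor and the ubiquitin ligase at the centre of the HRD1 complex. Sel1l (1376073_at; gene at chr6:116466163-116510436 of GRCr8) read 10.33 and 10.34 in the control lines, 10.44 in Sar1A, 10.14 and 10.36 in Sar1B, and 10.89 and 11.15 in Sar1B:H79G. All 8 Sar1B:H79G arrays, from 10.85 to 11.18, lay above all other arrays, of which the highest was 10.54. The log2 fold change was 0.68 against control (SE 0.11, adjusted p = 0.011) and 0.77 against Sar1B (SE 0.11, adjusted p = 0.014), and 0.58 against Sar1A missed the test (SE 0.14, adjusted p = 0.099). With control line 1 or 2 omitted, the change against control missed the test (adjusted p = 0.056 and 0.084), as did that against Sar1B (0.051 for each). Syvn1 (1371827_at; gene at chr1:212766736-212775426 of GRCr8) read 10.09 and 10.11 in control, 9.96 in Sar1A, 10.11 and 10.20 in Sar1B, and 10.40 and 10.65 in Sar1B:H79G. Its Sar1B:H79G arrays lay above all control and Sar1A arrays and overlapped with those of Sar1B. Against control it was higher by 0.42 (SE 0.10, adjusted p = 0.030), which missed the test with control line 1 (0.10), control line 2 (0.14) or the second Sar1B:H79G line (0.081) omitted. Against Sar1B it had 0.37 (adjusted p = 0.077, and 0.033 with Sar1B:H79G line 1 omitted) and against Sar1A 0.57 (adjusted p = 0.071, and 0.030 with that line omitted).

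Edem1, an ER lectin that draws misfolded glycoproteins toward degradation, was raised over control in the native Sar1B lines. Its brightest probe set (1372533_at; gene at chr4:143350989-143385693 of GRCr8) had line means of 9.93 and 9.73 in control, 10.19 in Sar1A, 10.28 and 10.57 in Sar1B, and 10.13 and 10.28 in Sar1B:H79G. All arrays of the Sar1A, Sar1B and Sar1B:H79G lines lay above all control arrays, and those groups overlapped each other. The log2 fold change of Sar1B against control was 0.59 (SE 0.12, adjusted p = 0.042), the only member called there (1 of 9 higher, 0 lower), where 4.72% of all genes were called higher and 2.01% lower. It missed the test with control line 1 (adjusted p = 0.078), control line 2 (0.23), or the first or second Sar1B line (0.052 and 0.14) omitted. For Sar1B:H79G against control the difference was 0.37 and missed the test (SE 0.12, adjusted p = 0.076). The other 2 Edem1 probe sets were called in both comparisons, at 0.64 and 0.65 in Sar1B:H79G (adjusted p = 0.016 and 0.018) and 0.86 and 0.66 in Sar1B (adjusted p = 0.018 and 0.035). Between Sar1B:H79G and Sar1B the 3 probe sets had differences of -0.22, -0.22 and -0.01, with 95% intervals of -0.52 to 0.08, -0.51 to 0.07 and -0.32 to 0.30.

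Derl1 and Derl2 encode derlins, membrane proteins of the ERAD export complexes. Derl1 was higher in Sar1B:H79G on all 3 of its probe sets (gene at chr7:91293963-91316639 of GRCr8). On the brightest (1389615_at), the control lines read 11.48 and 11.37, Sar1A 11.76, the Sar1B lines 11.71 and 11.59 and the Sar1B:H79G lines 12.31 and 12.20. All Sar1B:H79G arrays, from 12.17 to 12.46, lay above all other arrays on this probe set, and the same was true of the other 2 probe sets. The brightest rose by 0.83 (log2) against control (SE 0.08, adjusted p = 0.0025) and by 0.61 against Sar1B (SE 0.08, adjusted p = 0.0098). The other 2 rose by 0.59 and 0.61 against control (adjusted p = 0.011 and 0.0098) and by 0.54 and 0.48 against Sar1B (adjusted p = 0.027 and 0.035). Against Sar1A the 3 values were 0.50, 0.56 and 0.44, and none passed (adjusted p = 0.060, 0.077 and 0.14). With Sar1B line 2 omitted, the brightest missed the test against Sar1B (adjusted p = 0.052).

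Derl2 gave no common direction over its probe sets (gene at chr10:56226340-56238038 of GRCr8). The brighter (1376437_at) had line means of 10.38 and 10.41 in control, 10.33 in Sar1A, 10.47 and 10.45 in Sar1B, and 10.63 and 10.66 in Sar1B:H79G. It was called higher against control by 0.25 (SE 0.06, adjusted p = 0.035), although its arrays overlapped between the groups. The dimmer (1377763_at) had a difference of -0.28 (SE 0.11, adjusted p = 0.11). The mean of both was -0.016 (adjusted p = 0.89), and the call of the brighter was lost when any 1 line of the control, Sar1B or Sar1B:H79G groups was left out (adjusted p = 0.063 to 0.12).

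**Figure D3:**
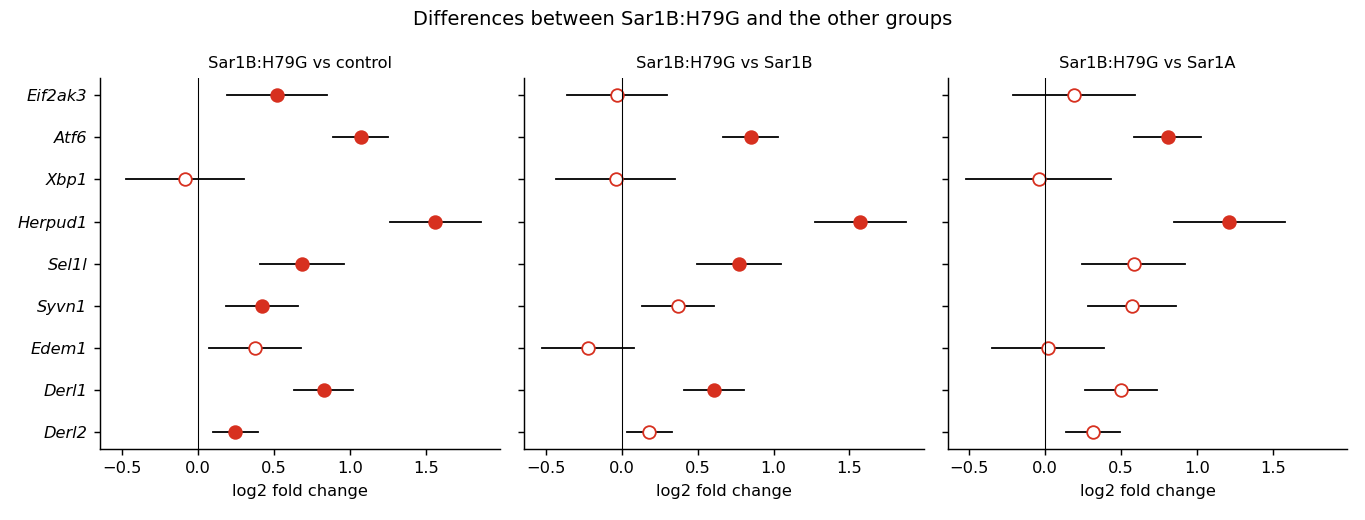
Log2 fold change (x axis) of Sar1B:H79G against control, Sar1B and Sar1A for the 9 genes at their brightest probe set (y axis), with bars for the 95% interval of the fit and filled points for an adjusted p under 0.05. Herpud1 and Atf6 are filled in all 3 panels, and Xbp1 lies near 0 in each.

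Over all 15 probe sets, 12 were called higher in Sar1B:H79G than in control, 7 higher than in Sar1B and 2 higher than in Sar1A, and none was called lower. Of all 31042 probe sets, 4083, 1037 and 413 were called higher in these comparisons and 2845, 1643 and 507 lower. On 12, 7 and 8 of the 15 respectively, every Sar1B:H79G array exceeded every array of the other group. How many of all probe sets did so was not counted, so whether these 3 counts exceed the general share was not tested. The Sar1A line has no second line, and its spread was taken from the other groups. The probe sets of Sel1l and Syvn1, the second of Atf6 and all 3 of Derl1 were those where every Sar1B:H79G array exceeded every Sar1A array without passing the test.

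**Figure D4:**
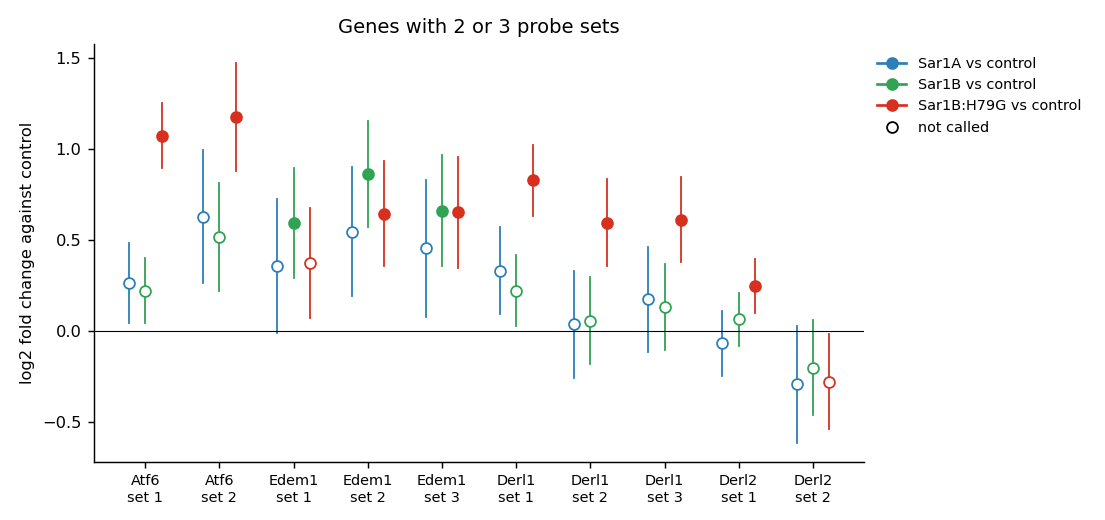
Log2 fold change against control (y axis) with the 95% interval, for each probe set of the genes that have 2 or 3 (x axis), in Sar1A, Sar1B and Sar1B:H79G, with filled points for an adjusted p under 0.05. All 3 Edem1 probe sets lie above 0 in each group, the Derl1 probe sets are called in Sar1B:H79G, and the second Derl2 probe set lies below 0 in all 3.

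Native Sar1A and Sar1B gave 0 and 1 called genes against control. For Sar1B against control, 4 of the 9 (Eif2ak3, Atf6, Edem1 and Derl1) had an unadjusted limma p under 0.05. Of all 14217 genes, 3869 did so there. In Sar1A against control, 0 of 9 genes were called by limma, where 0.661% of all genes were called higher and 0.204% lower. At an unadjusted p under 0.05 in that fit lay 2 of the 9 (Atf6 and Derl1), beside 2817 of all 14217 genes, a similar share. The largest differences were 0.36 for Edem1 (adjusted p = 0.23), 0.35 for Herpud1 (0.23) and 0.33 for Eif2ak3 and Derl1 (0.29 and 0.13). Between Sar1A and Sar1B, 0 of 9 were called (0.00703% of all genes higher, 0% lower). An unadjusted p under 0.05 was held by 0 of the 9, beside 1207 of all 14217 genes. Herpud1 had the largest difference there, 0.36 higher in Sar1A (95% interval -0.0032 to 0.73, adjusted p = 0.77), and its Sar1A and Sar1B arrays did not overlap. With every array counted as a replicate, 5 genes were called in Sar1A against control and 1 between Sar1A and Sar1B, beside 36.2% and 10.3% of all probe sets, a count that treats technical replicates as independent. The median of the 9 differences was 0.064 in Sar1B and 0.27 in Sar1A against control, beside 0.031 and 0.018 for all genes.

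Of 28 measured genes of further ERAD machinery, 16 were called higher and 1 lower in Sar1B:H79G than in control, where 13.4% of all genes were called higher and 10.6% lower. The members, this list and the lists below were chosen with earlier results of these data known. Their shares beside those of all genes are thus no independent test. Against Sar1B 7 rose and 1 fell, where 4.9% of all genes rose and 7.18% fell, and against Sar1A 6 rose and 0 fell, where 1.98% and 2.22% did. The median log2 fold changes of the list were 0.36, 0.21 and 0.25, beside 0.025, 0.012 and 0.015 for all genes. Selenos, a selenoprotein that tethers the segregase p97 to the ER membrane, rose by 1.61 against control (SE 0.07, adjusted p = 9e-04) and 1.36 against Sar1B (adjusted p = 0.0016). The ubiquitin-conjugating enzymes Ube2j1 and Ube2g2 rose by 1.52 and 1.07 against control (adjusted p = 0.00099 and 0.0020) and by 0.91 and 0.86 against Sar1B (adjusted p = 0.0052 and 0.0061). The gene that fell in both was Edem2, a paralog of Edem1, at -0.51 against each (adjusted p = 0.012 and 0.021). With control line 1 or 2 omitted it missed the test against control (0.056 and 0.063) and against Sar1B (0.054), the latter also with Sar1B line 1 (0.070) or Sar1B:H79G line 1 (0.069) omitted. Ube2j1 was also the gene of the list called in Sar1B against control, where 4.72% of all genes were called higher, at 0.61 (adjusted p = 0.021), which missed the test with either control line (0.069 and 0.15) or either Sar1B line (0.069 and 0.086) omitted. The count of genes higher than in control was 9 without control line 1 and 5 without control line 2, and that against Sar1B was 3 without Sar1B line 2. Against Sar1A it was 1 without either control line.

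Of 14 measured genes that partner the sensors, 3 were called higher and 2 lower in Sar1B:H79G than in control, counts near the shares of all genes (13.4% higher and 10.6% lower). Against Sar1B 2 were called higher and 3 lower (4.9% and 7.18% of all genes), and against Sar1A 0 were called by limma (1.98% and 2.22% of all genes). Against Sar1A, 6 of the 14 had an unadjusted p under 0.05, beside 2799 of all 14217 genes. The medians were 0.099, -0.0033 and -0.068, beside 0.025, 0.012 and 0.015 for all genes. Eif2s1, which encodes the eIF2α that PERK phosphorylates, rose by 0.59 and 0.71 (adjusted p = 0.0059 and 0.0062). Tmbim6, an ER membrane protein that restrains IRE1, rose by 0.85 and 0.80 (adjusted p = 0.023 and 0.047). It missed the test against control with control line 1 (0.059) or 2 (0.15) omitted, and against Sar1B with any line but Sar1B:H79G line 2 omitted (0.080 to 0.15). Eif2ak2, the eIF2α kinase that responds to double-stranded RNA, fell by 0.53 and 0.57 (adjusted p = 0.015 and 0.021), but missed the test against control with control line 2 omitted (0.10) and against Sar1B with any line but Sar1B line 1 omitted (0.058 to 0.071). Eif2ak4, the kinase GCN2, fell by 0.40 and 0.47 (adjusted p = 0.024 and 0.026). It missed the test against control with either control line (0.060 and 0.14) or Sar1B:H79G line 1 (0.095) omitted, and against Sar1B with any line but Sar1B line 1 omitted (0.052 to 0.11). Mbtps1, the Golgi protease that makes the first cut in ATF6, was lower against Sar1B by -0.38 (adjusted p = 0.046) and had -0.03 against control (adjusted p = 0.79). With any 1 line of the control, Sar1B or Sar1B:H79G groups omitted, Mbtps1 missed the test (adjusted p = 0.055 to 0.20). Of the 5 calls of this list against control, 3 remained in number without control line 1 and 1 without control line 2.

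Of 14 ATF6 and XBP1 arm targets, 4 were called higher and 0 lower against control (median 0.13), where 13.4% of all genes were called higher and 10.6% lower. Against Sar1B 3 were called higher and 0 lower (median 0.086), beside 4.9% and 7.18% of all genes, and against Sar1A 1 and 0 (median 0.13), beside 1.98% and 2.22%. The first count was 2 without control line 2 or Sar1B:H79G line 2, and the last was 0 without either control line. Hspa5, the chaperone BiP, and Dnajb9, its co-chaperone ERdj4, rose by 1.00 and 1.05 against control (adjusted p = 0.0031 and 0.0033) and by 0.74 and 0.89 against Sar1B (adjusted p = 0.012 and 0.0086). Against Sar1A, Hspa5 had 0.51 and was not called. The genes of this list not called lay on both sides of 0. The 10 against control ran from -0.50 to 0.49, and the 11 against Sar1B from -0.41 to 0.53. Sec61b, a translocon subunit, rose by 0.41 against Sar1B (adjusted p = 0.039), but missed the test with either line of Sar1B (0.11 and 0.16) or of Sar1B:H79G (0.12 and 0.10) omitted. Of 10 targets of PERK and ATF4, 9 were called higher and 0 lower against control (median 1.82) and against Sar1B (median 1.59), and 6 against Sar1A (median 1.72), comparisons in which 13.4%, 4.9% and 1.98% of all genes were called higher. In the alternative fits the count called higher against control stayed the same, while that against Sar1B fell in some. The count against Sar1A ranged from 0 to 9 over these fits. Ddit3, the transcription factor CHOP, rose by 3.04 against control (SE 0.24, adjusted p = 0.0015) and 3.01 against Sar1B (SE 0.24, adjusted p = 0.0028), Atf3 by 2.71 and 2.70 (adjusted p = 0.0012 and 0.0027), and Ppp1r15a, which directs dephosphorylation of eIF2α, by 2.49 and 2.27 (adjusted p = 9e-04 and 0.0017). The tenth, Vldlr, had -0.20 against control (adjusted p = 0.12). The difference between the lists was not tested. Phosphorylation of eIF2α was not measured here, and the part of PERK in the rise of these listed targets was not tested.

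Of 7 genes whose mRNAs are substrates of IRE1-dependent decay, 0 were called by limma against Sar1B or Sar1A (medians 0.054 and 0.018), with 0 at an unadjusted p under 0.05 in either. Of all 14217 genes, 3921 against Sar1B and 2799 against Sar1A had an unadjusted p under 0.05. Against control 1 was called lower, Scara3, at -0.32 in Sar1B:H79G (adjusted p = 0.016) and -0.27 in Sar1B (adjusted p = 0.048), where 10.6% and 2.01% of all genes were called lower. With control line 1 or 2 or Sar1B:H79G line 1 omitted, Scara3 missed the test in Sar1B:H79G (adjusted p = 0.054, 0.078 and 0.066), and in Sar1B it did so with any 1 line omitted (0.066 to 0.19).

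**Figure D5:**
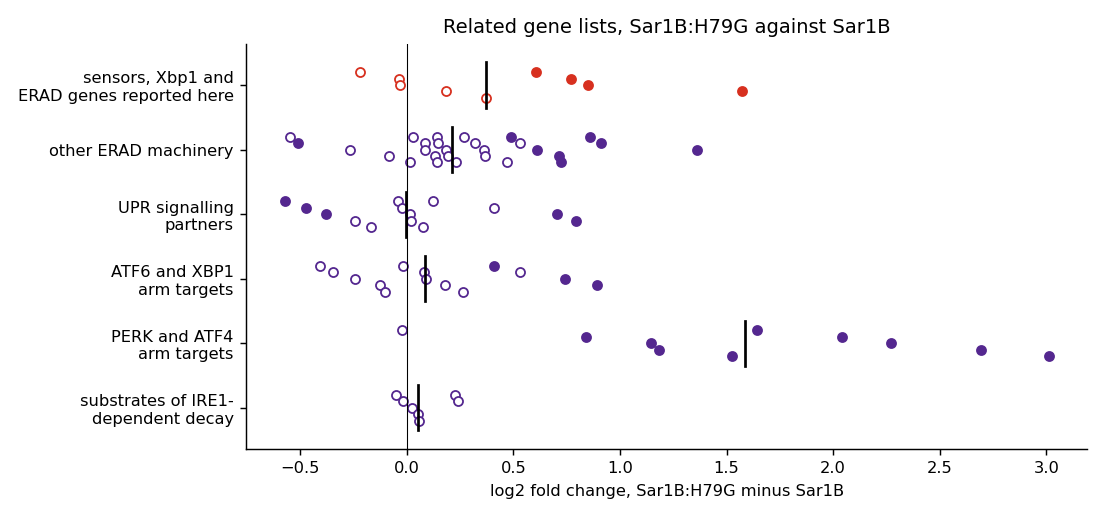
Log2 fold change of Sar1B:H79G against Sar1B (x axis) for the 9 UPR sensor and ERAD genes and for 5 lists of related genes (y axis), with 1 point per gene, filled at an adjusted p under 0.05, and a bar at the median of each list. The PERK and ATF4 targets reach 3.01 with a median of 1.59, and the substrates of IRE1-dependent decay lie around 0.

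The genes whose line means most closely followed Atf6, Eif2ak3, Herpud1 and Xbp1 were sought among 9431 genes above the median probe set, by Pearson's r over the 7 line means, which share their groups and array series. For Atf6 they were Srpra (r = 0.998), which encodes a subunit of the receptor of the signal recognition particle, Neurl4 (0.996) and Gtpbp2 (0.996), and for Herpud1 they were Xab2 (0.997), Abcf3 (0.994) and Armcx3 (0.993). For Eif2ak3 they were Gfm1 (0.992), Vps35 (0.988) and Tjp1 (0.987). For Xbp1 the highest values were lower, at 0.909 for Fam219b, 0.906 for F2 (prothrombin) and 0.906 for Ptger2. Over the 25 single arrays r was 0.977 for Srpra, 0.651 for Neurl4 and 0.977 for Gtpbp2 with Atf6, between 0.953 and 0.972 for those named with Herpud1, and between 0.925 and 0.955 for those named with Eif2ak3. With Xbp1 it was 0.160 for Fam219b, 0.868 for F2 and 0.495 for Ptger2.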

How the data were processed

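RNA from 7 McArdle-RH7777 lines was hybridized to 25 arrays. The authors normalized the intensities with loess and MAS5 in CARMAweb (versions not given in the sources used here) and deposited a log2 value for every probe set and array. The files state no log base, which was taken to be 2 from the size of the values, and give no detection calls, so no background level was set. After 57 array controls were left out, 20826 of 31042 probe sets carried 1 gene symbol in the platform annotation, 436 several and 9780 none. The brightest probe set stood for a gene. The mean of each line's arrays was the unit of replication. A model of 4 group means was fitted to these means by limma 3.58.1 (R 4.3.3) with 3 residual and 3.16 prior degrees of freedom, and p-values were adjusted by Benjamini-Hochberg over all probe sets. The number of lines limits the precision. Lines of a group had a median SD of 0.066 (control), 0.054 (Sar1B) and 0.060 (Sar1B:H79G). Sar1A, with 1 line, took its spread from the rest of the fit. The p-values measure the spread between clones. Identical values were found in 0 pairs of arrays.

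The members, gene lists, markers and motifs were chosen with earlier results of these data known. Named genes are all members, the 3 genes of each list with the largest change in Sar1B:H79G against Sar1B among those called, and for Eif2ak3, Atf6, Xbp1 and Herpud1 the 3 genes with the highest r. Edem2, Eif2ak4, Mbtps1, Vldlr, Scara3, Col1a1 and Epcam were named after their values were seen. The fit was tested on simulated data. Alternatives took single arrays as replicates, with or without a random block for the line (statmod 1.5.0), normalized by quantiles, aligned the array medians, left out dim probe sets, fitted only the compared groups, used a trended and robust variance, averaged a gene's probe sets, blocked on the line number, or omitted a control, Sar1B or Sar1B:H79G line. A fit of the Sar1 array series alone was added after the data were seen.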

Additional observations from a re-analysis of the deposited data

Results flagged for a closer look

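The highest and lowest array were checked in 60 groups of arrays (15 probe sets in 4 groups), and in 3 an array stood apart from the rest of its group by more than the 95% limit of Dixon's test, which chance exceeds in about 1 of 20 groups. For the brightest Edem1 probe set, an array of the Sar1A line read 10.40, above the other arrays at 10.11 to 10.13. For the brightest Derl1 probe set, an array of the Sar1A line read 11.90 beside 11.70 to 11.73, and an array of Sar1B:H79G line 1 read 12.46, where the rest of that group read 12.17 to 12.30. Arrays of a line were averaged in the tests.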

How the results depend on the processing

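Over all alternatives, 742 of the members' values kept their direction and their side of the threshold, 38 newly passed it, 35 no longer passed it and 22 changed sign, none of these being called in the opposite direction. Atf6 and Herpud1 passed in every alternative against control and against Sar1B, and Derl1 in every one against control. Taking each array as a replicate gave 7 members called in Sar1B:H79G against Sar1B (6 higher, Edem1 lower), 6 against Sar1A, 4 in Sar1B against control, 5 in Sar1A against control and 1 between Sar1A and Sar1B, beside 31.8%, 23.2%, 42.2%, 36.2% and 10.3% of all probe sets (8.63%, 2.96%, 8.29%, 1.18% and 0.00322% with lines as replicates). A random block for the line gave 5 in Sar1B:H79G against Sar1A and 4 each in Sar1B and Sar1A against control, beside 14.6%, 26.4% and 19.3% of all probe sets. Fitting only the compared groups gave 0 in Sar1B:H79G against Sar1A (2 in the fit of all lines) and 2 in Sar1B against control, and the Sar1 array series alone gave 1 in Sar1B:H79G against Sar1A and 3 against Sar1B. Omitting a line gave 3 to 6 in Sar1B:H79G against control, 3 to 5 against Sar1B, 1 to 3 against Sar1A and 0 to 2 in Sar1B against control. The causes were not tested.

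Lines of different groups share only a number: their deviations correlated at 0.0071, 0.192 and 0.0752. With the line number as a replicate block, Sar1B against control had 0 members called, while Sar1B:H79G had 6 against control, 4 against Sar1B and 3 against Sar1A, and 2 differences changed sign, Edem1 in Sar1B:H79G against Sar1A (-0.022) and Xbp1 in Sar1A against Sar1B (-0.00987).

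The other changes of sign were small. Quantile normalization gave 0.033 for Eif2ak3 in Sar1B:H79G against Sar1B, and -0.060 for Syvn1 and -0.0644 for Derl2 in Sar1B against control. The mean of probe sets gave -0.016 and -0.069 for Derl2 in Sar1B:H79G and Sar1B against control. With a line omitted, Xbp1 ranged from -0.22 to 0.049 in Sar1B:H79G against control, from -0.23 to 0.16 against Sar1B and from -0.16 to 0.067 against Sar1A, from -0.24 to 0.15 in Sar1B and from -0.18 to 0.094 in Sar1A against control, and from -0.19 to 0.20 between Sar1A and Sar1B. Eif2ak3 ranged from -0.21 to 0.14 in Sar1B:H79G against Sar1B, Edem1 from -0.057 to 0.091 in Sar1B:H79G against Sar1A, and in Sar1B against control Herpud1 from -0.050 to 0.034 and Sel1l from -0.20 to 0.024.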
